A study of Mus musculus with 5 samples.

Results

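FGF ligands and receptors were followed through 7 genes, the ligands Fgf4, Fgf5 and Fgf8 and the receptors Fgfr1, Fgfr2, Fgfr3 and Fgfr4, in mouse epiblast stem cells. The members were taken by gene symbol, which gave 11 of the 25697 probes on each array and 7 of the 16593 genes that the probes stand for. The ligands have 1 probe each, Fgfr1 and Fgfr3 have 2, Fgfr2 has 3 and Fgfr4 has 1. Epiblast stem cells are pluripotent cells derived from the post-implantation embryo, here of the E3 line, which was grown over inactivated CF1 mouse fibroblasts in a serum-replacement medium (KSR) containing FGF2 at 5 ng/ml. When the cells were semiconfluent this was exchanged, for 12 h, for KSR medium holding 1 µM PD0325901, a MEK inhibitor (PD), 3 µM CHIR99021, a GSK3 inhibitor (CH), leukemia inhibitory factor at 1000 U/ml (LIF), all of these (PCL), or no supplement (untreated). No array was made from cells still in FGF2, as all 5 exchange media, the untreated one included, are described without it. Every condition has 1 bead array, and differences between conditions therefore come without replicates and without p-values.

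FGF ligands are secreted proteins that bind receptor tyrosine kinases together with heparan sulphate and signal, among other routes, through Ras, MEK and ERK. ERK activity in turn induces feedback inhibitors such as the Sprouty proteins and dual-specificity phosphatases. In the embryo, Fgf4 is made by pluripotent cells and acts on them and on their neighbours, Fgf5 is a marker of the epiblast after implantation, and Fgf8 is made in the primitive streak, where it is needed for cells to migrate during gastrulation. Fgfr1 is the receptor most used by the mouse epiblast.

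The promoters of Fgf4 and Fgf5 are shown because these ligands stood on opposite sides of the untreated array with CH and with LIF. RefSeq starts on GRCm38.p6 gave a window of 300 bases, from 250 before to 50 after the start, for 5 of the 7 members; Fgf8 and Fgfr1 are not among them. The Fgf4 window is chr7:144861136-144861435 and the Fgf5 window chr5:98253934-98254233, both on the plus strand. Capitals mark motif matches.
Fgf4: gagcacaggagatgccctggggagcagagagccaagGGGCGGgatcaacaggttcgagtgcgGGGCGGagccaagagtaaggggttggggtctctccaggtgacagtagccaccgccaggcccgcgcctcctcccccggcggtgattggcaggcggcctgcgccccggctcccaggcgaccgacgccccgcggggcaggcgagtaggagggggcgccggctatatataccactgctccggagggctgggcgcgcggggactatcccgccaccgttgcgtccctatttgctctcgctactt
Fgf5: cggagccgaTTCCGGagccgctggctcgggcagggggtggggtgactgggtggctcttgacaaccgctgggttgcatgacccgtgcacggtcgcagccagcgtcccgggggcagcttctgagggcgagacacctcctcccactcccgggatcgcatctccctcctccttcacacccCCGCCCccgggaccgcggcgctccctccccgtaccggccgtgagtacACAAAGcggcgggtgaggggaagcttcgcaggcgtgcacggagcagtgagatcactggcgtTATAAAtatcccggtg

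A set of 6 motifs was searched on both strands. Fgf4 held 2 matches to the SP/KLF core GGGCGG, at positions -214 and -188 from the start, and 0 matches to the other motifs. Motifs were searched only as written, so the stretch tatatata in the Fgf4 window is no match to TATAAA. Fgf5 held 1 match to the ETS core CCGGAA, 1 to the SP/KLF core, 1 to the TCF/LEF core (CTTTGA or CTTTGT) and 1 to TATAAA. These lay at -241 (ETS), -74 (SP/KLF), -27 (TCF/LEF) and 35 (TATAAA), the last of them after the start. It held 0 matches to the STAT motif TTCNNNGAA and to the octamer ATGCAAAT. No match overlapped another. Of 32851 promoter windows of the same length, 31.2% held the TCF/LEF core, 14.9% the ETS core, 35.7% the SP/KLF core, 8.30% the STAT motif, 1.74% the octamer and 13.6% TATAAA. A match describes letters in the window and is no evidence of binding.

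Levels below are log2 values after background correction and quantile normalization across the 5 arrays, and each ± is the spread of a probe's beads as a standard error on that scale, which covers measurement within an array only. A probe counts as detected at a detection p under 0.01. Between 10389 probes (PCL) and 10898 (LIF) were detected, and detected probes had bead errors with a median of 4.13% to 4.39%. As a wider gauge of error, different probes of the same gene were compared where both arrays detected them. Such probes read the same RNA on the same arrays, so this gauge leaves out variation between cultures. The gap between their log2 differences from untreated had a median of 0.22 to 0.28, and 5% of genes had a gap above 0.78 for PD, 0.67 for CH, 0.73 for LIF and 0.65 for PCL. All 9 pluripotency markers on the array were detected on every array, and so were 7 of 8 primed-state markers, Fgf5 itself among them, Cer1 being the exception. Of 19 fibroblast markers 14 or 15 were detected per array, with a summed intensity of 13410 with PD, 10757 with CH, 10513 with LIF, 10685 with PCL and 9183 untreated, and Col1a2, Col3a1, Postn and Pdgfrb were detected on no array. In these mixed cultures, fewer cells of a type and less RNA per cell cannot be told apart.

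The 3 ligands were detected on all 5 arrays and each had its own pattern. Fgf8 stood far above untreated with CH and PCL and below it with LIF. Fgf5 stood above untreated with CH and below it with PD and PCL. Fgf4 stood below untreated with CH and PCL and above it with LIF. Over the 5 arrays the level of Fgf8 spanned 4.06 log2 units, the 3rd widest span of 8138 detected genes, that of Fgf4 2.52 (19th) and that of Fgf5 2.13 (41st), against a median span of 0.52.

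**Figure D1:**
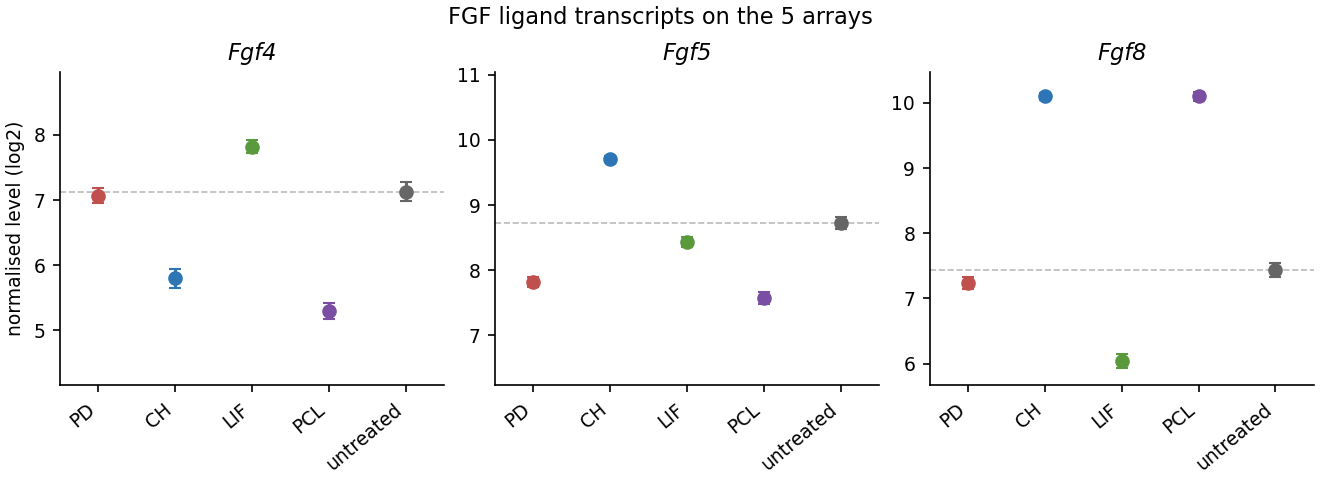
Normalised log2 level of Fgf4, Fgf5 and Fgf8 on each array, 1 point per array with the bead standard error. The dashed line is the untreated level, and each panel has its own axis of equal length. Fgf8 is at 10.10 with CH and PCL, Fgf5 is highest with CH, and Fgf4 is highest with LIF.

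Fgf8, the streak ligand, had a scanner intensity of 225 in PD, 1246 in CH, 141 in LIF and 1047 in PCL cells, against 227 in untreated cells. On the normalised scale it stood at 7.24 in PD, 10.10 in CH, 6.04 in LIF and 10.10 in PCL cells, against 7.44 in untreated cells. The CH and PCL arrays formed the high pair and LIF was lowest. The PD and untreated arrays, and the CH and PCL arrays, did not differ beyond the 95% limits of their combined bead error, and each of the other gaps in the order did. The equal values with CH and PCL come from the same rank on both arrays, since quantile normalization gives equal ranks equal values. Against untreated, Fgf8 differed by 2.66 ± 0.12 with CH (a ratio of 6.32) and 2.66 ± 0.13 with PCL, by -1.40 ± 0.15 with LIF (a ratio of 0.379) and by -0.20 ± 0.14 with PD. It was the 3rd most higher of 7699 genes with CH and the 3rd of 7652 with PCL, and the 78th most lower of 7796 with LIF.

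Fgf5, the epiblast marker, had a scanner intensity of 301 in PD, 959 in CH, 447 in LIF and 240 in PCL cells, against 467 in untreated cells. Its normalised levels were 7.81 in PD, 9.70 in CH, 8.43 in LIF and 7.57 in PCL cells, against 8.73 in untreated cells. The order was CH, untreated, LIF, PD and PCL, and each gap between neighbours exceeded these limits. Fgf5 differed from untreated by 0.97 ± 0.10 with CH (a ratio of 1.959), by -0.91 ± 0.12 with PD (0.531), by -0.30 ± 0.12 with LIF and by -1.16 ± 0.13 with PCL (0.449). The LIF value is smaller than the gap that 5% of genes exceed between their own probes.

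Fgf4, the ligand of pluripotent cells, had a scanner intensity of 208 in PD, 129 in CH, 318 in LIF and 104 in PCL cells, against 196 in untreated cells. Its normalised levels were 7.07 in PD, 5.80 in CH, 7.82 in LIF and 5.30 in PCL cells, against 7.13 in untreated cells. PD and untreated could not be separated beyond their bead error, LIF stood above them and CH and PCL below. On the PCL array its detection p was 0.0063, close to the limit, so this level is little above background. The summed intensity of the 9 pluripotency markers was also lowest with PCL, at 27400 with PD, 27221 with CH, 29693 with LIF and 19746 for PCL, against 25712 in untreated cells. This sum is led by the brightest markers, Dnmt3b and Pou5f1. On the normalised scale 3 of the 9 stood above untreated with PCL and 6 below, with a median of -0.14. Over all genes 49.3% stood above. The part of these markers in the Fgf4 value was not tested. Fgf4 differed from untreated by -1.33 ± 0.21 with CH (a ratio of 0.399), by -1.83 ± 0.19 with PCL (0.282), by 0.69 ± 0.17 with LIF (1.62) and by -0.06 ± 0.18 with PD. It was the 5th most lower gene with CH and the 7th with PCL, and the 155th most higher with LIF. The LIF value lies within the 0.73 gap that 5% of genes exceed between their own probes.

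**Figure D2:**
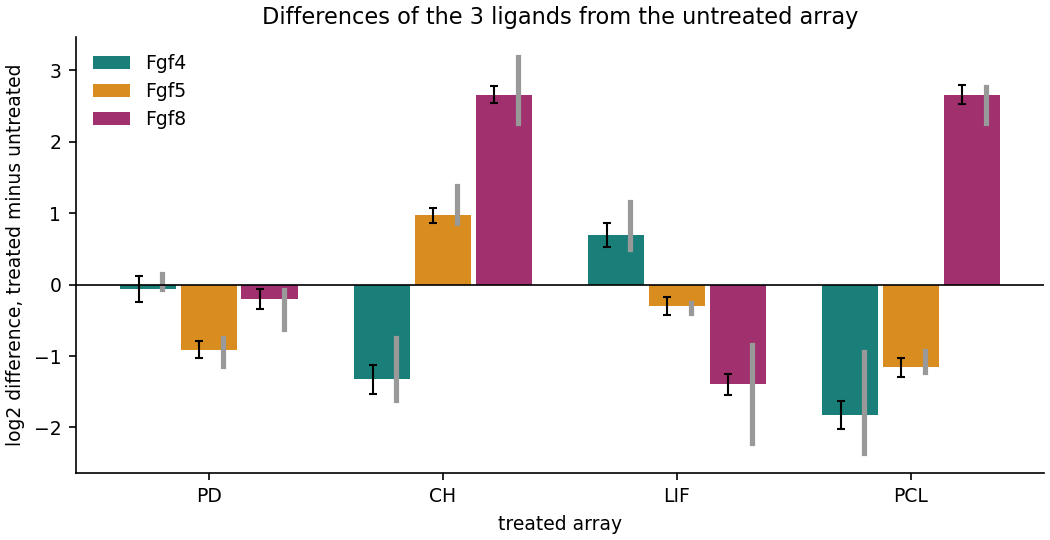
Log2 difference of each treated array from the untreated array for Fgf4, Fgf5 and Fgf8. Bars are the values given in the text, black lines the bead standard error, and grey lines the lowest and highest value over the alternative settings. With CH the bars run from -1.33 for Fgf4 to 2.66 for Fgf8, and with LIF the order is turned, from 0.69 to -1.40.

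The spread between the ligands' responses was widest on the arrays that received CH. With CH, the difference of Fgf8 exceeded that of Fgf4 by 3.99 ± 0.24 and that of Fgf5 by 1.69 ± 0.16. With PCL the corresponding excesses were 4.49 ± 0.23 and 3.81 ± 0.19. With LIF the order was opposite, as the difference of Fgf8 lay below that of Fgf4 by 2.09 (-2.09 ± 0.23) and below that of Fgf5 by 1.10 (-1.10 ± 0.19). With PD, Fgf5 lay below Fgf4 (-0.86 ± 0.22), and Fgf8 and Fgf4 differed by -0.15 ± 0.23, within their bead error. These comparisons all use the untreated array.

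Comparisons that share no array gave the following. CH minus untreated and PCL minus PD both add CH, the second of them together with LIF. Fgf8 differed by 2.66 ± 0.12 in the first and 2.86 ± 0.12 in the second, and Fgf4 by -1.33 ± 0.21 and -1.77 ± 0.17. Fgf5 differed by 0.97 ± 0.10 where CH was given alone and by -0.24 ± 0.12 where PD was present on both arrays. PD minus untreated and PCL minus CH both add PD, the second of them together with LIF. Fgf5 differed by -0.91 ± 0.12 in the first and -2.13 ± 0.10 in the second, where it was the 3rd most lower of 7578 genes. Fgf8 differed by -0.20 ± 0.14 and 0.00 ± 0.08, and Fgf4 by -0.06 ± 0.18 and -0.50 ± 0.20.

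The remaining contrasts set the combination against LIF and the kinase inhibitors against each other. PCL minus LIF was 4.06 ± 0.13 for Fgf8, a ratio of 16.6 and the 2nd most higher of 7712 genes, and -2.52 ± 0.16 for Fgf4, the 2nd most lower. Fgf5 stood at -0.86 ± 0.12 there. CH minus PD was 2.86 ± 0.10 for Fgf8, 1.88 ± 0.09 for Fgf5 and -1.27 ± 0.19 for Fgf4. The value of PCL minus untreated was set against the sum of the single treatments: it departed by 1.60 ± 0.27 for Fgf8, -1.14 ± 0.38 for Fgf4 and -0.91 ± 0.24 for Fgf5. At the main setting the central 95% of all detected genes ran from -1.29 to 1.54. Fgf4 and Fgf5 lay inside it. Fgf8 passed its upper end by less than its bead error and was 230th of 8138 genes by size. Over the alternative settings the departure was 0.99 to 1.87 for Fgf8, -1.66 to -0.67 for Fgf4 and -0.95 to -0.79 for Fgf5. No range over all genes was computed at those settings, and no ligand is said to be set apart from other genes.

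Members enter a count where either array of the pair detected them. By this rule, 0 of 5 members were at least 2-fold apart with PD, against 0.941% of all genes. With CH it was 2 of 4 (Fgf4 and Fgf8; 0.961% of all genes), with LIF 1 of 4 (Fgf8; 2.95%) and with PCL 3 of 5 (the 3 ligands; 1.39%). PCL minus CH gave 1 of 5 (Fgf5; 0.845%), PCL minus PD 2 of 5 (Fgf4 and Fgf8; 1.28%), PCL minus LIF 2 of 5 (Fgf4 and Fgf8; 3.9%) and CH minus PD 4 of 5 (the ligands and Fgfr2; 1.89%). With Fgfr2 at its bound the last count is 3. Without background correction, the members at least 2-fold apart from untreated were 1 with CH (Fgf8), 0 with LIF and 1 with PCL (Fgf8), as Fgf4 then stood at -0.74 with CH, Fgf8 at -0.85 with LIF, and Fgf4 at -0.95 and Fgf5 at -0.93 with PCL. With an offset of 50, Fgf4 stood at -0.95 with CH and the count there was 1. Other settings raised counts. With PD it was 1 (Fgfr2) with the authors' values and with an offset of 1. Against the mean of the arrays without the agent it was 2 with PD (Fgf5 and Fgfr2), 3 with CH (the ligands) and 2 with LIF (Fgf4 and Fgf8). The counts over all genes also move with the settings, and their ranges are given at the end. Fgfr3 and Fgfr4 were not detected on any array and enter none of these counts.

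Fgfr1, the main epiblast receptor, was detected on all 5 arrays by both of its probes, at low levels. Its brighter probe stood at 5.73 in PD, 6.0 in CH, 5.70 in LIF and 6.41 in PCL cells, against 5.76 in untreated cells. Its other probe stood at 5.62 in PD, 5.60 in CH, 5.38 in LIF and 5.73 in PCL cells, against 5.79 in untreated cells. On the brighter probe PCL was the high array, and on the other probe no neighbouring arrays differed beyond their bead error. PCL minus untreated was 0.65 ± 0.20 on the brighter probe and -0.07 ± 0.22 on the other, a gap of 0.71 that is above the 0.65 exceeded by 5% of genes. The other differences of the brighter probe from untreated were -0.03 ± 0.17 with PD, 0.24 ± 0.16 with CH and -0.06 ± 0.17 with LIF. Since its probes disagree, no change of Fgfr1 is given.

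Fgfr2, a receptor whose splice forms bind different sets of FGFs, was detected by 1 of its 3 probes, on the PD and PCL arrays. This probe had a scanner intensity of 132 in PD, 84.9 in CH, 92.9 in LIF and 103 in PCL cells, against 94.98 in untreated cells. With the background correction and offset used here, it was at least 1.72-fold higher with PD than in untreated cells (0.98 ± 0.25). With PCL the bound was 1.12-fold, but the measured difference of 0.35 ± 0.26 lay within the 95% limits of its bead error. The probe's detection p with PCL was 0.0063, close to the limit. These bounds depend on those settings, since the measured log2 difference was 0.98 with PD, but 0.54 at an offset of 50 and 0.37 without background correction, and with PCL 0.35, but 0.12 without background correction. CH and LIF had it not well above background, as had the untreated array, so no fold is given for them. A second probe was also highest with PD (104) and then PCL (94.4), against 83.9 in untreated cells, with a detection p of 0.0138 with PD, just outside the limit. The remaining probe lay between 79.4 and 93.8 on all 5 arrays and was detected on none. With PD the differences of the 3 probes from untreated lay 0.84 apart. The 0.78 exceeded by 5% of genes covers probes detected on both arrays. No Fgfr2 probe was detected in untreated cells, so that limit is no gauge here. Beyond the setting-dependent bounds above, no change of Fgfr2 is given. The fibroblast marker sum given above was also highest with PD, but it is led by Acta2 (5508 with PD, 3349 in untreated cells). The median normalised level of the 19 markers was highest with PCL (7.33, against 6.87 with PD and 6.77 untreated). With PD 12 of 15 detected markers stood above untreated and 3 below, with a median difference of 0.47. The part of these markers in the Fgfr2 values was not tested. With PCL 9 of 15 stood above untreated, with a median of 0.12. Over all genes, 50.2% stood above untreated with PD and 49.3% with PCL.

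Fgfr3 and Fgfr4, the receptors for which no probe was detected on any array, lay between 76.8 and 90.7 and between 78.4 and 88.6 in scanner intensity. Their normalised levels spanned 0.16 and 0.21 log2 units for the probes of Fgfr3 and 0.29 for Fgfr4, and no neighbouring arrays differed beyond bead error. A probe at this level gives only an upper bound on its transcript, and no fold is given.

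**Figure D3:**
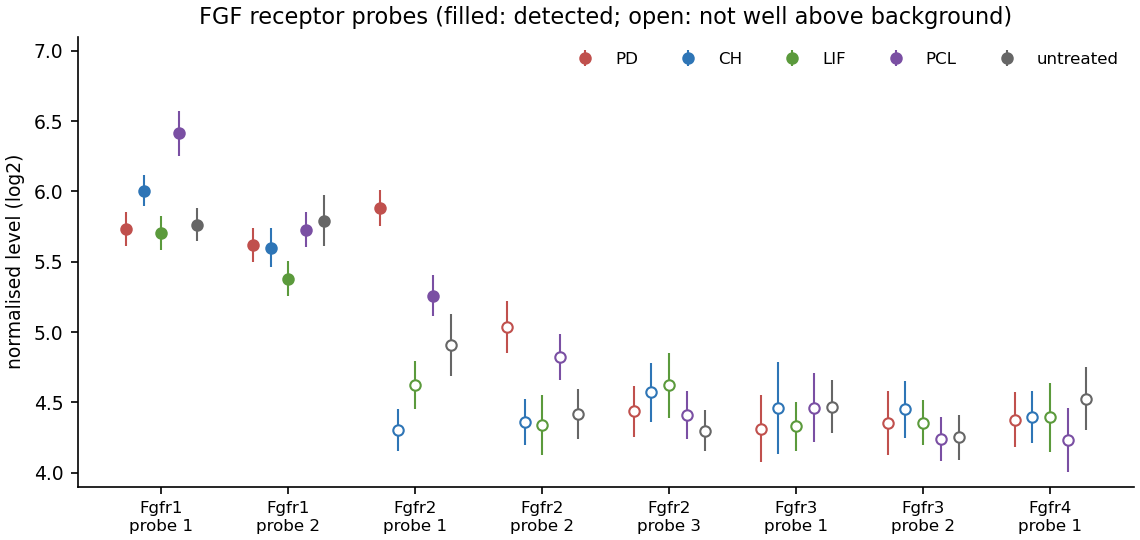
Normalised log2 level of each probe of Fgfr1, Fgfr2, Fgfr3 and Fgfr4 on the 5 arrays, with the bead standard error. Filled points were detected and open points were not well above background. Both Fgfr1 probes are filled on every array, the first Fgfr2 probe with PD and PCL only, and no other point is filled. Probes differ in their own brightness, so heights compare arrays within a probe.

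Of the other 19 FGF ligands on the array, 8 were detected on at least 1 array and 4 on all 5 (Fgf7, Fgf13, Fgf15 and Fgf22). None of them was at least 2-fold apart from untreated on any treated array. Fgf17, a close relative of Fgf8, was detected with CH and LIF only. It was at least 1.63-fold higher with CH and at least 1.24-fold higher with LIF, and Fgf8 was low on the LIF array. Fgf7, a ligand typical of mesenchymal cells, stood at 0.32 ± 0.23 in PD, -0.54 ± 0.19 in CH, 0.16 ± 0.21 in LIF and -0.93 ± 0.19 in PCL cells. Fgf2, the ligand that the culture medium had supplied, was detected on no array. The medians over detected members were -0.19 in PD, -0.16 in CH, 0.23 in LIF and -0.51 in PCL cells, from 4, 6, 8 and 5 genes, against 0.00, -0.01, 0.05 and 0.00 over all genes compared. The LIF median includes 4 genes that the untreated array did not detect (Fgf10, Fgf17, Fgf21 and Fgf23). Over the 4 genes detected on both arrays it was -0.24, and with undetected levels at their bound 0.00, so the list has no direction with LIF.

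Around the receptors, 6 of 11 partners and decoys were detected. Fgfrl1, a receptor-like protein without a kinase domain, was detected with CH and PCL and was at least 1.20-fold and 1.12-fold higher there. Flrt2, an FLRT protein, was detected in untreated cells but not with PCL, where it was at least 1.02-fold lower, a bound close to no difference. Of 15 detected heparan sulphate carriers and enzymes, 11 stood above untreated with PD and 4 below, with a median of 0.26, against 50.2% of all genes above 0 and a median of 0.00. Hs6st1, which adds sulphate to heparan chains, was the only member at least 2-fold apart, at 1.11 ± 0.12 in PD, -0.36 ± 0.15 in CH, 0.18 ± 0.12 in LIF and 0.49 ± 0.14 in PCL cells. Fibroblast markers stood higher on the PD array too, as given above, and their part in this was not tested.

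The transducers between receptor and nucleus varied little. Of 13 detected members, 0 were at least 2-fold apart on any treated array, and the medians were 0.19 in PD, 0.05 in CH, 0.12 in LIF and 0.13 in PCL cells. The widest differences were those of Map2k1, which encodes the PD target MEK1, at 0.66 ± 0.22 with LIF and 0.61 ± 0.20 with PD, and of the PI3-kinase subunit Pik3r1 at 0.50 ± 0.14 with PD.

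Feedback inhibitors and target genes of the pathway were low on both arrays that received PD. Of 15 members detected on either array, 15 stood below untreated with PD and 15 with PCL, with medians of -0.70 and -0.53, and 5 were at least 2-fold lower in each (Egr1, Etv4, Dusp4, Dusp6 and Dusp14). Over all genes, 0.451% were at least 2-fold lower with PD and 0.68% with PCL, and 50.2% and 49.3% stood above untreated. With CH 12 of 15 stood above untreated, with a median of 0.15, against 48.5% of all genes. With LIF 6 of 16 did, with a median of -0.10, against 55.2%. The ETS factor Etv4 stood at -2.07 ± 0.20 with PD and -2.09 ± 0.14 with PCL, and at 0.62 ± 0.11 with CH. The phosphatase Dusp4 stood at -1.72 ± 0.13 with PD and -2.08 ± 0.13 with PCL, and the early response factor Egr1 was at least 6.56-fold and 6.13-fold lower. Dusp14 was at least 2.21-fold lower with LIF. In PCL minus CH, which shares no array with PD minus untreated, 14 of 15 were below 0 with a median of -0.67. Over all genes, 50.7% were above 0 there. Fgf5 was low on the same arrays as this list, at -0.91 with PD and -1.16 with PCL, while Fgf8 stood at -0.20 and 2.66.

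**Figure D4:**
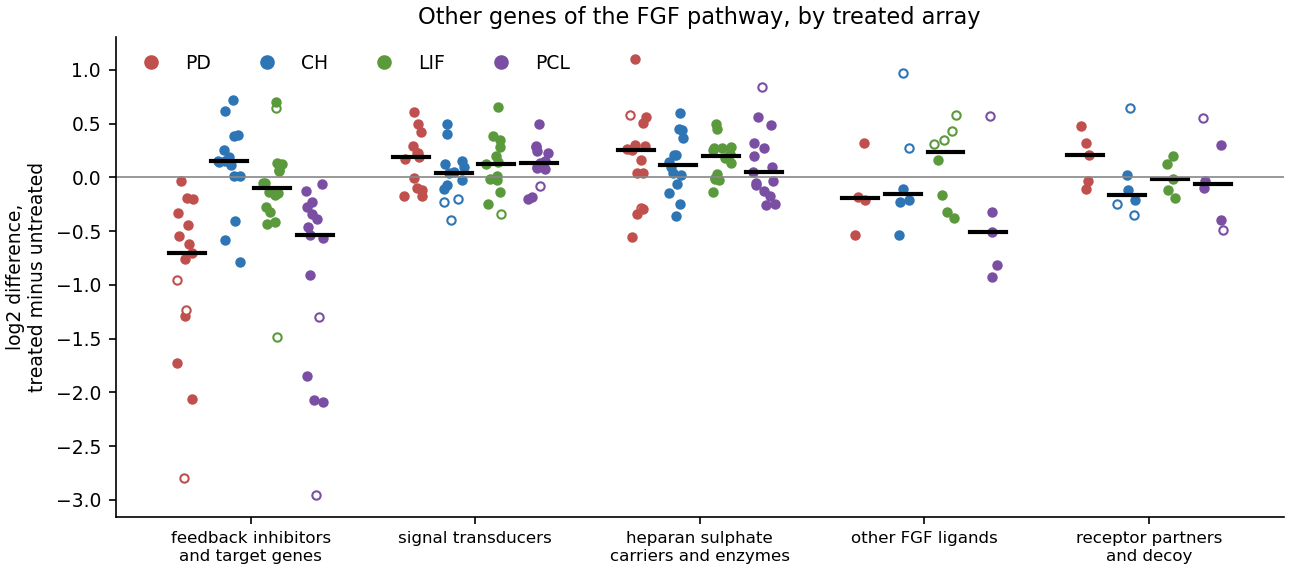
Log2 difference from untreated of the detected members of 5 lists of FGF pathway genes, by treated array. Each point is a gene, open where 1 of the arrays did not detect it, and black lines are medians. The feedback and target list lies below 0 throughout with PD and PCL (medians of -0.70 and -0.53), and of the other lists only Hs6st1 with PD passes 2-fold.

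A further list of 19 genes on the array mixed genes known to act upstream of these ligands with Wnt-response genes such as Sp5 and Axin2. Counts over it are therefore not counts of regulators alone. It was chosen with earlier results of these data known and is no test. With CH, 5 of 15 detected members were at least 2-fold higher in measured values and 4 at their bound, against 0.572% of all genes, and Pou3f1, a POU factor of the epiblast, was lower (-1.17 ± 0.09, and -1.61 ± 0.12 with PCL). The Wnt-induced factor Sp5 was at least 7.34-fold higher with CH and 7.76-fold with PCL. Axin2, a Wnt target, stood at 1.46 ± 0.14 with CH and 1.48 ± 0.15 with PCL, and Nodal, a TGF-beta family ligand, at 1.33 ± 0.16 and 0.98 ± 0.15. Eomes, a T-box factor, stood at least 2.27-fold higher with CH and 1.55-fold with PCL, and Wnt3 at least 1.61-fold and 1.08-fold. Sox2, which activates the Fgf4 enhancer together with Pou5f1, stood at -0.59 ± 0.14 with CH, 0.50 ± 0.13 with LIF and -0.14 ± 0.13 with PCL, and Pou5f1 at 0.08 ± 0.12, 0.43 ± 0.09 and -0.39 ± 0.10. With LIF, Stat3 stood at 1.29 ± 0.12, the only member at least 2-fold apart there.

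Genes with the most similar pattern were found by the root mean square difference between levels centred on each gene's mean over the 5 arrays, among 8019 genes. For Fgf8 they were Wnt8a, a Wnt ligand, at 0.39 log2 units, Sp5 at 0.46 and Rtl8c at 0.59, against a median of 1.65 over all genes. Wnt8a stood at 2.34 ± 0.13 with CH, 1.49 ± 0.14 with PCL and -2.05 ± 0.21 with LIF. Sp5 and Rtl8c were detected with CH and PCL only, so their part of the pattern on the other arrays lies at background.

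For Fgf4 the nearest were Frat2, which encodes a GSK3-binding protein, at 0.24, the zinc transporter gene Slc39a8 at 0.39 and Stat4 at 0.42, against a median of 0.94. Frat2 stood at -1.38 ± 0.19 with CH and -1.87 ± 0.17 with PCL, close to Fgf4, and at 0.05 ± 0.15 with LIF, where Fgf4 stood at 0.69. For Fgf5 the nearest were Pkdcc, a secreted kinase, at 0.30, the ERK phosphatase Dusp6 at 0.31 and the ephrin receptor Epha1 at 0.32, against a median of 0.78. Dusp6 stood at -1.29 ± 0.11 with PD and -1.85 ± 0.12 with PCL, as Fgf5 was low there, but at 0.15 ± 0.09 with CH, where Fgf5 stood at 0.97. Epha1 stood at 1.35 ± 0.12 with CH and -0.85 ± 0.13 with PD. With PCL it stood at -0.25 ± 0.13, where Fgf5 stood at -1.16, and with LIF at 0.08 ± 0.15, where Fgf5 stood at -0.30. With 5 arrays these likenesses are a description only.

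**Figure D5:**
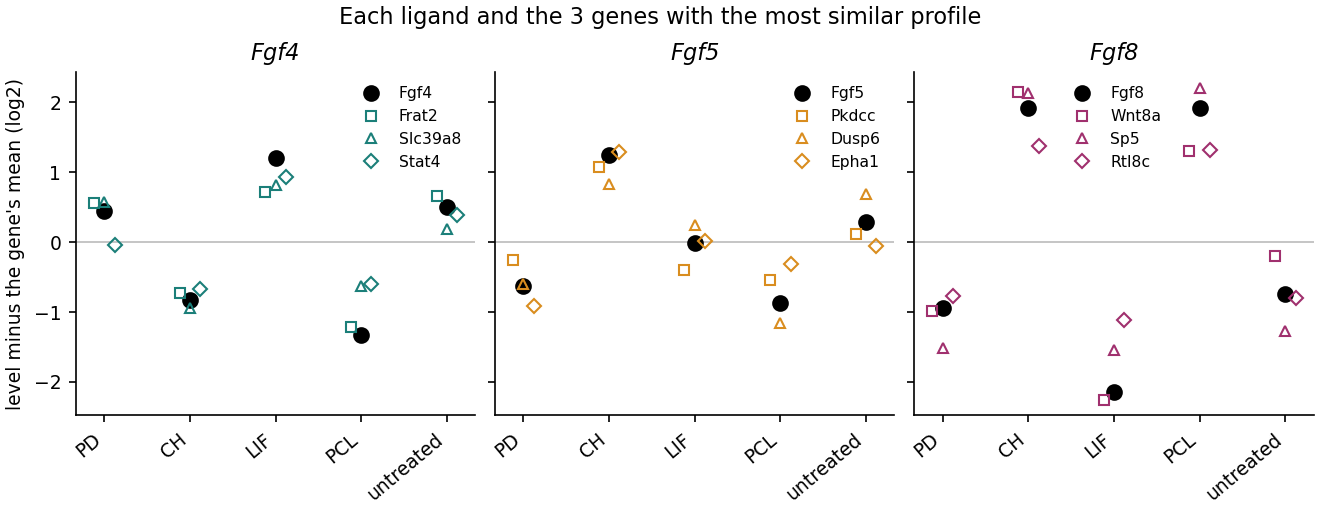
Log2 level minus the gene's own mean over the 5 arrays for each ligand (black) and the 3 genes whose pattern is most like it (open symbols). All 3 genes beside Fgf8 are high with CH and PCL, those beside Fgf4 are low there, and those beside Fgf5 are highest with CH.

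Genes of short genomic span stood low as a group with LIF and, less so, with PD and CH. Fgf4 lies in the shortest of 10 groups of genes by span, whose median difference was -0.15 with PD, -0.13 with CH, -0.30 with LIF and -0.05 for PCL. Fgf8 lies in the next, with medians of -0.13 with PD, -0.07 with CH, -0.11 with LIF and -0.05 for PCL. Fgf5 lies in the sixth group, with a median of 0.10 with LIF. On the LIF array Fgf4 stood above untreated while its group stood below, and the difference of Fgf8 was larger than that of its group. Less these group medians, the LIF differences were 0.99 for Fgf4, -1.29 for Fgf8 and -0.39 for Fgf5. Less them, the PD differences were 0.09 for Fgf4, which turns its sign, -0.08 for Fgf8 and -0.94 for Fgf5.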

How the data were processed

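The authors deposited, for each of 5 arrays, a scanner table that per the file headers holds a bead intensity on a linear scale, its standard error over beads and a detection p-value for 25697 probes. The submitters' processing notes name BeadStudio, with no version. The lowest intensity was 67.6 to 71.4, so no background had been subtracted. The authors' deposited table of processed intensity values, whose scaling and background subtraction stay unknown (medians of 99.5 to 100), served as an alternative.

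Intensities were processed together by neqc of limma 3.58.1 in R 4.3.3 (normexp correction from the detection p-values, offset 16, quantiles, log2), which was tested on simulated data. The offset pulls dim probes towards 0. Later steps ran in Python 3.11.15 (numpy 2.4.6, pandas 2.3.3, matplotlib 3.10.9). Probes were named from the platform annotation: 23978 had 1 symbol, 0 several and 1719 none, and 23962 matched RefSeq by Entrez identifier. The brightest probe represents a gene. A gene was compared when detected on at least 1 of 2 arrays. A probe detected on 1 of 2 arrays gives "at least N-fold": the bright level against the higher of the dim array's lowest detected level and the probe's own level there.

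The members, lists and motifs were chosen with earlier results of these data known. From each pathway list, members at least 2-fold apart from untreated on any array were named, or otherwise up to 2 with the widest difference, plus the 3 nearest patterns per ligand; other genes were named after their values were seen, where a sentence needed them. The precision is limited by 1 array per condition. Probe sequences were not used here.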

Additional observations from a re-analysis of the deposited data

How the results depend on the processing

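Across 261 recomputed values of 38 member differences, 257 kept their sign, and the exceptions concern Fgf4 with PD (up to 0.15) and Fgf8 in PCL minus CH (down to -0.04), both near 0. Of the 90 for the ligands against untreated, 77 stayed within the 95% limits of their bead error. Without background correction Fgf4 stood at -0.74 with CH and -0.95 with PCL, and Fgf8 at 2.26 with CH, 2.26 with PCL and -0.85 with LIF. With an offset of 50, Fgf8 stood at -1.06 with LIF and Fgf4 at -1.24 with PCL, and with an offset of 1 Fgf4 stood at -2.36 with PCL. Against the mean of the arrays without the agent, Fgf8 stood at -0.62 with PD, 3.19 with CH and -2.22 with LIF, Fgf5 at 1.37 with CH and Fgf4 at 1.16 with LIF. This last baseline averages the untreated array with the arrays of the other single agents, so it is a different contrast. For PD it holds Fgf8 at 10.10 with CH, 6.04 with LIF and 7.44 in untreated cells. The cause of the other moves was not tested. Leaving the LIF array out of the normalization, chosen after seeing the data, gave 2.67 for Fgf8 and -1.32 for Fgf4 with CH. Fgfr2 with PD lay between 0.37 and 1.55 over its alternatives. The recomputed counts of members and departures from the sum of single treatments were added after seeing the data.

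Counts of all genes at least 2-fold higher and lower depend strongly on these settings: 38 and 35 with PD (8 to 209 and 7 to 195), 44 and 30 with CH (13 to 181 and 2 to 203), 11 and 219 with LIF (5 to 172 and 134 to 397) and 54 and 52 with PCL (18 to 184 and 10 to 229). The background percentages in the report move with them. Signal over background limits Fgf4 with PCL, both Fgfr1 probes and all probes of Fgfr2, Fgfr3 and Fgfr4. No paired analysis was possible because each condition has 1 array.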
